A study of Mus musculus with 28 samples.

Results

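Livers of wild-type mice that drank ethanol together with ellagic acid (EA) were compared directly with livers of wild-type mice that drank ethanol together with trans-resveratrol (RSV). The comparison holds the 8 arrays labelled as these 2 diets in wild-type animals, 4 EA and 4 RSV, of the 28 arrays of the series. All were female C3H/HeN mice, 5 weeks old on arrival, 1 mouse per array, and every animal of both groups received Lieber's liquid diet with ethanol, for 1 week ad libitum and then for 4 weeks at 12 g per day. The polyphenol was the only labelled difference between them, and the approximate intake of each was 50 mg per kg body weight per day, so the doses and times were matched. The 4 wild-type mice on ethanol alone (EtOH) and the 4 on the diet with water in place of ethanol (control) entered the same fit and are given as reference. The same 4 diets were fed to mice deficient in the constitutive androstane receptor (CAR), 3 mice per diet.

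Both compounds are plant polyphenols, but they differ in kind: RSV is a stilbene, with phenol rings joined by a carbon-carbon double bond, and EA is a planar dilactone released from ellagitannins. Hepatic steatosis under ethanol involves fatty acid synthesis, fatty acid oxidation, lipid droplet storage and stress of the endoplasmic reticulum (ER), the compartment where secreted proteins fold. CAR is a nuclear receptor that switches on drug-metabolising cytochromes such as the Cyp2b family, and PPAR alpha (PPARA) is the nuclear receptor that switches on fatty acid oxidation. SREBP2 drives cholesterol synthesis when sterols are scarce. Liver RNA was read on Affymetrix whole-genome mouse arrays, and the values are log2 summaries made by the authors with the Distribution Free Weighted (DFW) method. DFW shrinks probe sets that vary little, so a difference below is one of DFW values on a log2 scale and not a calibrated fold change, and no level is set against that of another gene. Of the 45037 probe sets analysed, 38404 (85.3%) had an SD of at most 0.01 over the 16 wild-type arrays and are called compressed. The other 6633 represent 3855 genes, each through its probe set of highest mean level.

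The arrays of the 2 diets lay close together. With distance taken as 1 minus r (Pearson) across every probe set analysed, an EA and an RSV array were apart by a median of 0.00249 (range 0.00149 to 0.00404, 16 pairs). Pairs of EA arrays had a median of 0.00177 (0.0015 to 0.00201, 6 pairs), and pairs of RSV arrays a median of 0.00255 (0.00168 to 0.0041, 6 pairs). The 4 RSV mice were thus more scattered than the 4 EA mice, and the RSV pairs were as far apart as pairs across the diets. For 5 of the 8 mice the closest array came from a mouse on the same polyphenol. EA replicate 1 and RSV replicate 3 were nearest to each other, and RSV replicate 4 was nearest to EA replicate 4. The mean between-diet distance exceeded the mean within-diet distance by 0.000545 (exact permutation test over 35 splits, p = 0.0286, the smallest it can give). With any EA array left out, the p was 0.0857 to 0.171, and with any RSV array left out it was 0.0286, again the smallest it can give.

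How many probe sets told the 2 polyphenols apart depended on the test. In the limma fit, 11 of 45037 probe sets passed an adjusted p of 0.05 (percent called 0.0244), 3 higher and 8 lower with EA than with RSV, and 3954 (8.78%) had an unadjusted p under 0.05. The rank product, the method the study names, called 1500 at a false discovery rate of 0.05, 829 higher and 671 lower with EA. At 0.025 it called 966, 522 higher and 444 lower. It was run here on the DFW values, where the study describes it after another normalization, qFARMS. Its null shuffles the values of each array over all probe sets, compressed or not, so its counts are not on the same footing as those of limma. The balance of directions thus also differed between the tests. The calls below are those of limma. Against EtOH, the same fit called 1066 probe sets with EA (2.37%) and 164 with RSV (0.364%), and EtOH against control called 2501 (5.55%). These comparisons share arrays, and the difference between those counts was not tested. Among uncompressed probe sets, the median absolute difference between EA and RSV was 0.0663, 94 reached 0.5 and 3 reached 1. Leaving out one array moved the count of 11 to between 4 and 17. It was 4 without EA replicate 2 or without EA replicate 4, 5 without RSV replicate 4, and 7 without EtOH replicate 5 or without control replicate 1, 3 or 4. It was 17 without EtOH replicate 3. The 4 probe sets of Rbm14 passed in all 16 of these settings.

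Rbm14, an RNA-binding coactivator found in nuclear paraspeckles, fell furthest beyond its replicate spread. Its probe set 1436979_x_at read 7.73, 7.79, 7.85 and 7.8 in the 4 EA mice and 8.52, 8.41, 8.44 and 8.42 in the 4 RSV mice. The EA values were tight and all lay below every RSV, EtOH and control value of that probe set. The EtOH mice read 8.55 to 8.69 and the control mice 8.23 to 8.44, so the RSV mice sat between the control and EtOH ranges or inside the control range. The difference was -0.66 (SE 0.048, 95% interval -0.76 to -0.55, limma adjusted p = 0.00017). The second probe set of Rbm14, 1437032_x_at, read 6.75, 6.86, 6.85 and 6.88 with EA and 7.37, 7.33, 7.37 and 7.35 with RSV. Its difference was -0.52 (SE 0.037, adjusted p = 0.00017). The third, 1456566_x_at, read 7.15, 7.21, 7.28 and 7.22 with EA and 7.88, 7.83, 7.83 and 7.83 with RSV. Its difference was -0.63 (SE 0.058, adjusted p = 0.0014). The 3 probe sets thus gave one ordering, with the EA mice lowest and no overlap with RSV. The fourth, 1450569_a_at, was compressed and passed at a difference of -0.000562 (adjusted p = 0.0069). By their Affymetrix suffixes, these 4 hold probes shared with other transcripts or with each other, so they are not independent and other transcripts could contribute. The fifth probe set of Rbm14, the only one without such a suffix, was compressed and did not pass (adjusted p = 0.54). The EA minus EtOH difference of 1437032_x_at was -0.58 (adjusted p = 3.1e-05), while RSV minus EtOH was -0.06 (adjusted p = 0.47).

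**Figure D1:**
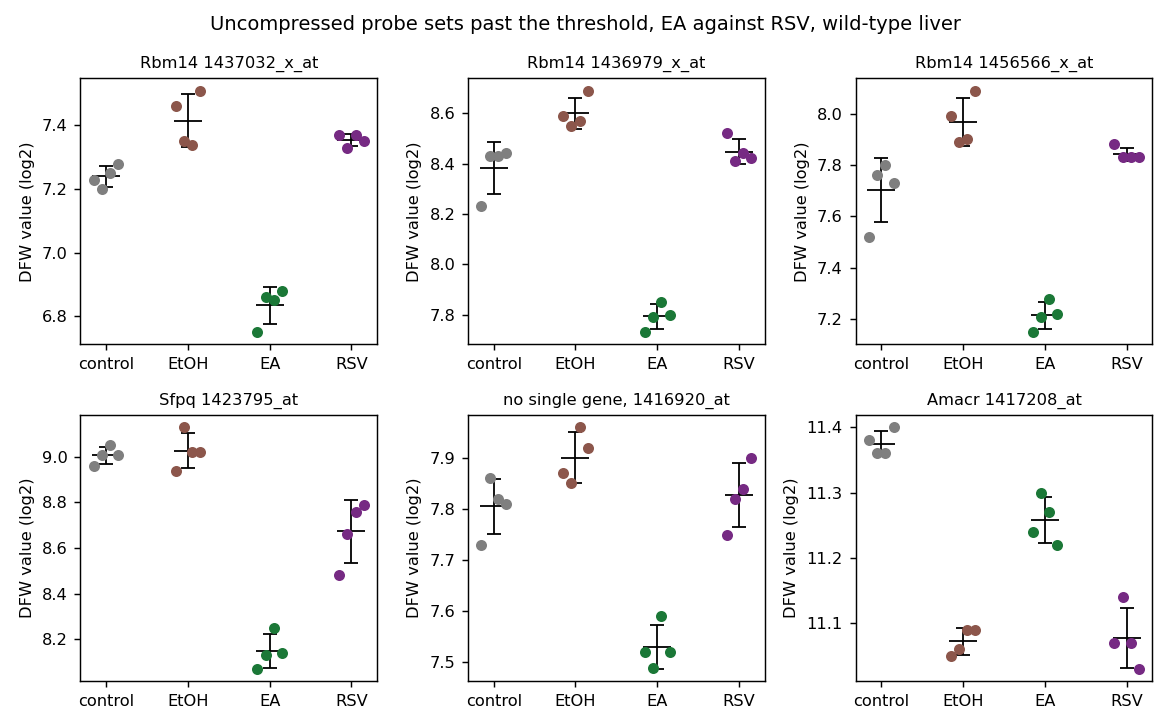
DFW value (log2) of each wild-type mouse for the 6 uncompressed probe sets past the threshold for EA against RSV. Points are single mice of the control, EtOH, EA and RSV diets, horizontal bars are means and error bars 1 SD (n = 4), and each panel has its own axis, which does not start at 0. In the 3 panels of Rbm14 all EA mice sit below all RSV mice, with RSV near EtOH and control, and Amacr is the panel in which EA sits above RSV.

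Sfpq, a paraspeckle protein that binds RNA and acts in splicing and transcription, also fell. Its probe set 1423795_at read 8.07, 8.13, 8.25 and 8.14 with EA against 8.48, 8.66, 8.76 and 8.79 with RSV. The groups did not overlap, and the RSV mice themselves lay below the EtOH mice, which read 8.94 to 9.13. The difference between the polyphenols was -0.52 (SE 0.063, 95% interval -0.66 to -0.39, limma adjusted p = 0.013). Against EtOH it was -0.88 for EA (adjusted p = 9.1e-05) and -0.36 for RSV (adjusted p = 0.045), so this gene passed with both compounds and further down with EA. The call rests on this probe set. The other 3 uncompressed probe sets of Sfpq did not pass, with differences of -0.173 (adjusted p = 0.62), -0.0209 (adjusted p = 0.42) and 0.0263 (adjusted p = 0.97). The call of 1423795_at was lost without RSV replicate 4 (adjusted p = 0.06), without EA replicate 4 (adjusted p = 0.07) and without EA replicate 2 (adjusted p = 0.083). Probe set 1416920_at, which carries 2 gene symbols and is therefore left without a name, read 7.52, 7.49, 7.59 and 7.52 with EA and 7.75, 7.82, 7.84 and 7.9 with RSV. Its difference was -0.30 (SE 0.036, adjusted p = 0.013), and it did not pass without those same arrays. The remaining compressed calls were Rlim, an E3 ubiquitin ligase, at 0.000728 (adjusted p = 0.04) and 3 probe sets with no gene name. The 5 compressed calls had absolute differences of 0.00024 to 0.000824, and such sizes have no reading as an amount of RNA.

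Both named genes that fell belong to a list of paraspeckle and splicing factors with 45 measured members. This list was chosen with earlier results of these data known. Of its 33 uncompressed members, 2 passed the threshold, both lower (0.0244% of all probe sets passed). EA lay above RSV on every array for 3 and below for 2, against 6.25% and 3.94% of all uncompressed genes. The median difference was 0.03, against 0.0138 for all uncompressed genes. Srsf5, a splicing factor of the serine-arginine family, read 11.13, 11.28, 11.05 and 11.26 with EA against 10.76, 10.76, 10.73 and 11.03 with RSV. Its difference of 0.36 did not pass (adjusted p = 0.41). Without RSV replicate 3, 7 members lay above on every array (10.4% of all uncompressed genes). Leaving out an array can only keep or raise such a count, here and in the lists below, and only some of these settings are given.

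Hexim1, the inhibitor of the elongation kinase P-TEFb, lay just outside the threshold. It read 8.23, 7.9, 8.1 and 7.9 with EA and 8.73, 8.56, 8.39 and 8.68 with RSV, without overlap. The EtOH mice read 8.85 to 9.13 and the control mice 9.34 to 9.45, so the 4 diets lay in the order control, EtOH, RSV and EA with no shared range. The difference between EA and RSV was -0.56 (SE 0.09, 95% interval -0.75 to -0.36, limma adjusted p = 0.1). EA minus EtOH was -0.97 (adjusted p = 0.00078) and RSV minus EtOH -0.41 (adjusted p = 0.075). Among 14 measured genes of transcription elongation, 6 were uncompressed, and Hexim1 alone of these lay below on every array (background 3.94%). The list's median difference was -0.02, with 3 members positive and 3 negative. Megf9, a membrane protein with EGF-like repeats, at -0.35 (adjusted p = 0.075), and Znhit6, which acts in the assembly of small nucleolar ribonucleoproteins, at 0.13 (adjusted p = 0.059), were nearer the threshold.

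Amacr, the racemase that prepares branched-chain fatty acids and bile acid precursors for peroxisomal oxidation, was the uncompressed gene that rose. It read 11.24, 11.3, 11.27 and 11.22 with EA and 11.07, 11.14, 11.07 and 11.03 with RSV. EtOH mice read 11.05 to 11.09 and control mice 11.36 to 11.4, so the EA mice lay between the control range and the range that EtOH and RSV shared. The difference was 0.18 (SE 0.024, 95% interval 0.13 to 0.23, limma adjusted p = 0.031). EA minus EtOH was 0.19 (adjusted p = 0.0048) and RSV minus EtOH 0.01 (adjusted p = 0.93). The call passed in 4 of the 16 settings with one array left out. In the bile acid list, Amacr was the 1 member that passed among 16 measured (0.0244% of all probe sets passed). The median of the list's 14 uncompressed members was -0.01. Cyp7a1, the rate-limiting enzyme of bile acid synthesis, had a difference of 0.46 with a 95% interval of -0.81 to 1.73. Cyp8b1, the sterol hydroxylase that sets the share of cholic acid, read 11.52 to 11.66 with EA and 10.85 to 11.42 with RSV, a difference of 0.39 (adjusted p = 0.64).

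Among genes whose EA and RSV arrays did not overlap, large differences seldom passed the threshold. The 10 highest with EA ran from 0.52 to 0.87 and the 10 lowest from -0.76 to -0.56, and apart from Rbm14 none of the 20 passed. These genes were chosen for the size of the difference among those without overlap and with an unadjusted p under 0.05, a limit that left out Atf3 at 0.67 and Fgf21 at 0.57. Vnn1, a pantetheinase and known PPARA target, read 8.4, 8.75, 8.79 and 8.52 with EA and 7.34, 7.64, 8.28 and 7.72 with RSV. The difference was 0.87 (95% interval 0.2 to 1.54, adjusted p = 0.48). Sipa1l2, a Rap GTPase-activating protein, followed at 0.72 (adjusted p = 0.36) and Jun, a subunit of the AP-1 transcription factor, at 0.71 (adjusted p = 0.44). At the other end stood Got1, the cytosolic aspartate aminotransferase, which read 10.18, 10.16, 10.14 and 10.33 with EA and 11.46, 10.97, 10.88 and 10.52 with RSV. The EA mice were tight and near the EtOH mean of 10.21, and the RSV mice lay above that mean. The EtOH mice themselves ranged from 9.62 to 11.26, which holds every EA value and every RSV value but the highest. The difference was -0.76 (95% interval -1.45 to -0.06, adjusted p = 0.54). Acly, which makes cytosolic acetyl-CoA from citrate, was at -0.67, and Fdps, a farnesyl diphosphate synthase of the sterol pathway, at -0.66.

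**Figure D2:**
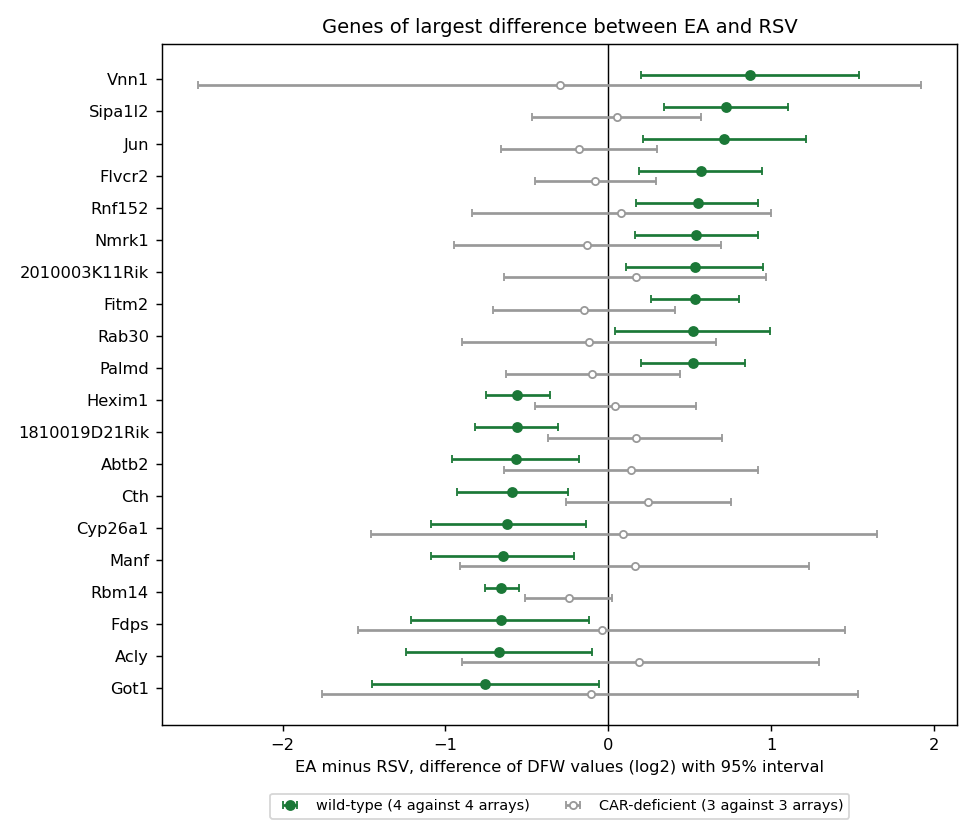
EA minus RSV difference of DFW values (log2) with its 95% interval from limma for the 10 genes of largest positive and the 10 of largest negative difference whose wild-type EA and RSV arrays did not overlap and whose unadjusted p was under 0.05. Filled green points are wild-type mice (4 against 4 arrays) and open grey points CAR-deficient mice (3 against 3 arrays). Rbm14 at -0.66 and Hexim1 at -0.56 have the narrowest wild-type intervals on the negative side, and every CAR-deficient interval includes 0.

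Genes of protein folding in the ER lay lower with EA. These chaperones and sensors form the unfolded protein response, in which the sensors of the ER membrane raise folding capacity when unfolded proteins build up. Of 30 measured members, 28 were uncompressed, 25 had a negative difference and 9 lay below RSV on every array (background 3.94%), while none passed the threshold. The median difference was -0.16, against 0.0138 over all uncompressed genes, and it stayed between -0.191 and -0.144 in the alternatives. The median was -0.30 for EA minus EtOH and -0.14 for RSV minus EtOH, comparisons that share the EtOH arrays. Manf, a secreted factor of the ER lumen, read 9.89, 9.58, 9.58 and 9.43 with EA and 10.55, 10.42, 9.95 and 10.15 with RSV. Its difference was -0.65 (95% interval -1.09 to -0.21, limma adjusted p = 0.41). Hyou1, an ER chaperone of the Hsp110 type, read 8.97, 8.77, 8.69 and 8.64 with EA and 9.21, 9.22, 9.06 and 9.48 with RSV. Both genes were lower in every EA mouse than in any RSV mouse, and EA replicate 1 was the highest EA mouse for each. Without EA replicate 1, 15 members lay below on every array (6.12% of all uncompressed genes), and without RSV replicate 3, 20 did (5.58%).

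The promoters of 4 of these genes are shown because they hold the ER stress response element, the motif bound by ATF6 with NF-Y. The letters searched were CCAAT, then a spacer of 9 bases of any kind, then CCACG, on both strands of RefSeq windows from 250 bases before to 50 bases after the transcription start (mouse build GRCm38.p6), and the match stands in capitals within lower-case sequence. Hspa5 lies at chr2:34771840-34772139 on the plus strand, Creld2 at chr15:88819396-88819695 on the plus strand, Syvn1 at chr19:6046326-6046625 on the plus strand and Calr at chr8:84846882-84847181 on the minus strand. Each sequence runs 5′ to 3′ along the strand of its gene.
Hspa5: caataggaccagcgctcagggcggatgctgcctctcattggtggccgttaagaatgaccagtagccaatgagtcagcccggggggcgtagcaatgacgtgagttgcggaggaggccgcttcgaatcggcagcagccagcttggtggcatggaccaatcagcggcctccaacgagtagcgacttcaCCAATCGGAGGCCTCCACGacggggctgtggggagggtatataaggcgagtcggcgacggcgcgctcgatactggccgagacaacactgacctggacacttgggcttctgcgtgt
Creld2: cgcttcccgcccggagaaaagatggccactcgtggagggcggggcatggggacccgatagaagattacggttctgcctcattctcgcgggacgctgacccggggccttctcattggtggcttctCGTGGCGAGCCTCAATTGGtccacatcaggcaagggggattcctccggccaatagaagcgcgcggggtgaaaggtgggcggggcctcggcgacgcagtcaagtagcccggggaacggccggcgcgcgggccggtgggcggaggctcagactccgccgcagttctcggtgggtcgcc
Syvn1: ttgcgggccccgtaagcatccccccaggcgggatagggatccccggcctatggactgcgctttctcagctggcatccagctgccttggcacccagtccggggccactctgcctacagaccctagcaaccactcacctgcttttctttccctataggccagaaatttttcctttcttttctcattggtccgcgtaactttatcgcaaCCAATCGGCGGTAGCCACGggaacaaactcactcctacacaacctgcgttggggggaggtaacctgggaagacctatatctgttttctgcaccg
Calr: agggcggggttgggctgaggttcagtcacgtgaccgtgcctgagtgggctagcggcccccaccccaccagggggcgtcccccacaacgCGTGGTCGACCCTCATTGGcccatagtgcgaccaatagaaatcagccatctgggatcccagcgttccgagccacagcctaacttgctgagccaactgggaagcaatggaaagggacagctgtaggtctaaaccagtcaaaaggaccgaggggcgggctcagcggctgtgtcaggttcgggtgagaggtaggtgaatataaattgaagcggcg

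The element was read forward in Hspa5 and Syvn1 and in reverse in Creld2 and Calr. It stood in the window of 9 of the 25 list members with a window and of 37 of 27025 genes in all (0.137%). Hspa5 (BiP), the master chaperone of the ER lumen, read 11.93, 11.66, 11.7 and 11.54 with EA and 12.21, 12.21, 11.82 and 12.06 with RSV. EA replicate 1 exceeded RSV replicate 3, and the other arrays did not overlap. The difference was -0.37 (95% interval -0.62 to -0.12, adjusted p = 0.42). Syvn1, the ubiquitin ligase of ER-associated degradation, read 8.64, 8.55, 8.68 and 8.51 against 8.96, 8.99, 8.84 and 8.71, with no overlap. Creld2, an ER stress-inducible disulfide isomerase, differed by -0.29 (95% interval -0.65 to 0.07) and Calr, the calcium-binding lectin chaperone, by -0.26 (-0.49 to -0.03). All 8 uncompressed members with the element had a negative difference, with a median of -0.22, and 1 of them lay below on every array. Of 16 with a window and no match, 13 were negative and 5 lay below on every array, with a median of -0.12. These are descriptions of letters and values, and no test of the element was made.

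Cytosolic heat shock proteins, which refold proteins outside the ER under the control of HSF1, also lay mostly lower with EA, by less. Of 22 measured members, 19 were uncompressed and 15 had a negative difference, with a median of -0.11 and none past the threshold. Chordc1, a cochaperone of Hsp90, read 9.08, 8.9, 9.02 and 8.87 with EA and 9.31, 9.39, 9.2 and 9.19 with RSV, a difference of -0.31 (adjusted p = 0.49). It was 1 of 2 members below on every array (background 3.94%). Without EA replicate 1 there were 7 (6.12% of all uncompressed genes), and without EA replicate 3 (4.82%) or RSV replicate 3 (5.58%) there were 4. Hspa1b, the stress-inducible Hsp70, differed by -0.49 (95% interval -1.22 to 0.24), with RSV replicates 1 and 2 at 10.5 and 10.4 and RSV replicate 4 at 9.33, inside the EA range of 9.2 to 9.68.

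Cholesterol synthesis had the lowest list median. All 18 uncompressed members of the SREBP2 list had a negative difference between EA and RSV, with a median of -0.45, yet 3 lay below on every array (background 3.94%) and none passed the threshold. Hmgcs1, which condenses acetyl-CoA into HMG-CoA, read 10.43, 10.74, 10.34 and 10.41 with EA and 12.18, 11.12, 11.19 and 10.54 with RSV. RSV replicate 1 stood far above the rest, and RSV replicate 4 lay inside the EA range. The difference was -0.78 (95% interval -1.46 to -0.1, limma adjusted p = 0.52). Fdps read 10.07, 10.51, 10.19 and 10.36 with EA and 11.46, 10.91, 10.88 and 10.53 with RSV, and Mvk, mevalonate kinase, read 7.62 to 7.69 against 7.73 to 8.64. RSV replicate 1 was the highest mouse for each of the 3 genes and RSV replicate 4 the lowest RSV mouse. Averaged over the list, the deviation from the mean of the 16 wild-type arrays was 0.70, 0.25, 0.18 and -0.12 in RSV replicates 1 to 4 and -0.24, -0.04, -0.18 and -0.20 in EA replicates 1 to 4. The median was -0.255 without RSV replicate 1 and -0.602 without RSV replicate 4. Without RSV replicate 4, 13 members lay below on every array (7.68% of all uncompressed genes), and without EA replicate 2, 8 did (4.59%). The list's median was -0.08 for EA minus EtOH and 0.35 for RSV minus EtOH. The mean deviation of the EtOH mice ranged from -0.59 to 0.35, which holds every EA value and every RSV value but the highest.

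Genes of fatty acid synthesis lay on both sides. Of 13 uncompressed lipogenic genes, 7 had a positive and 6 a negative difference, with a median of 0.06. Acaca, the acetyl-CoA carboxylase of the committed step, differed by 0.09 (95% interval -0.13 to 0.3). Acly read 10.65, 10.65, 10.22 and 10.66 with EA and 11.52, 11.24, 11.24 and 10.87 with RSV and was the 1 member below on every array (background 3.94%). Without RSV replicate 4 there were 5 (7.68% of all uncompressed genes), and without EA replicate 2 there were 2 (4.59%). Fasn, fatty acid synthase, differed by -0.57 (95% interval -1.27 to 0.13) and Thrsp, a lipogenic regulator, by -0.73 (-1.85 to 0.38), with RSV replicate 4 at the level of the lowest EA mouse for Thrsp (10.64 for both).

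**Figure D3:**
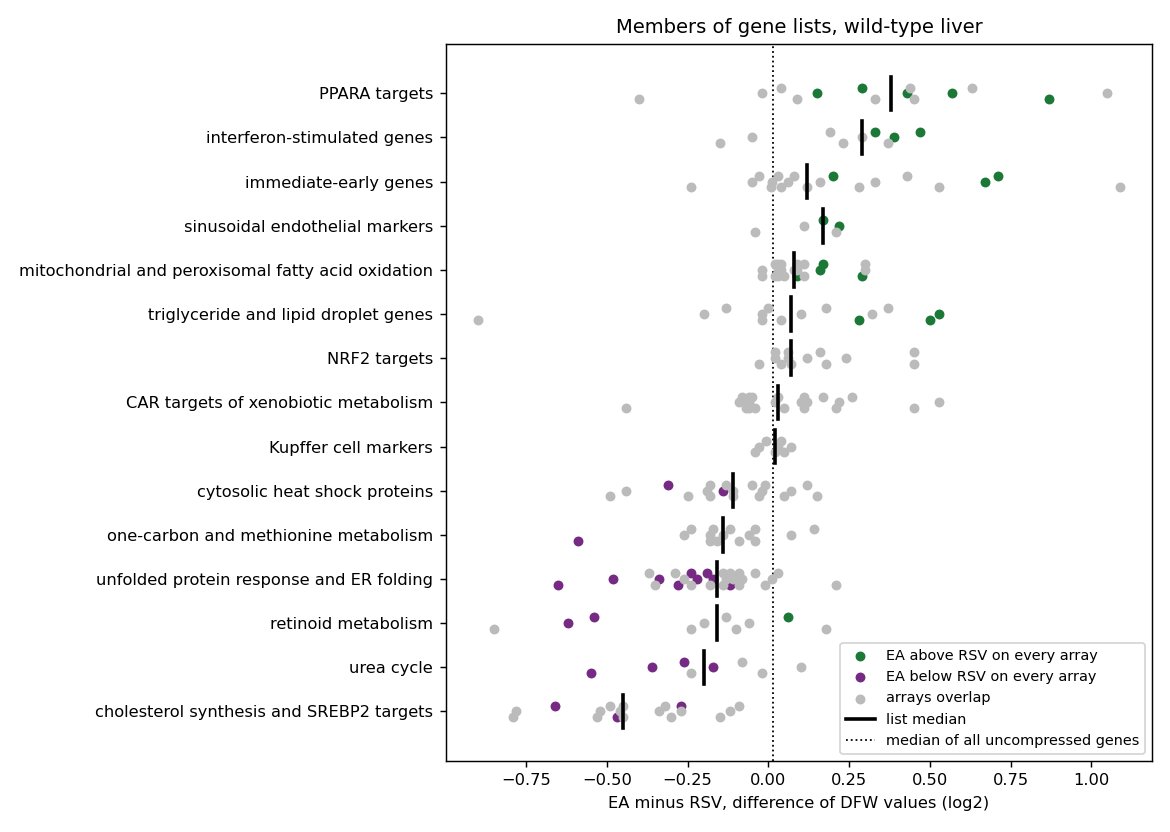
EA minus RSV difference of DFW values (log2) in wild-type liver for each uncompressed member of 15 gene lists. Each point is a gene, green where EA lay above RSV on every array, purple where it lay below on every array and grey where the arrays overlapped. Black bars are list medians, from -0.45 for cholesterol synthesis to 0.38 for PPARA targets, and the dotted line is the median of all uncompressed genes (0.0138).

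Targets of PPARA lay higher with EA. Of 14 uncompressed members, 12 had a positive difference and 5 lay above RSV on every array (background 6.25%), with a median of 0.38 and none past the threshold. The median was 0.03 for EA minus EtOH and -0.25 for RSV minus EtOH. Acot3, a peroxisomal acyl-CoA thioesterase, read 9.61, 10.52, 10.32 and 10.45 with EA and 7.99, 9.89, 9.7 and 9.12 with RSV. One EA mouse fell inside the RSV range, and the difference was 1.05 (95% interval -0.11 to 2.2, limma adjusted p = 0.61). Acot2, a mitochondrial thioesterase of the same family, read 8.89, 8.86, 8.76 and 9.16 against 8.38, 8.52, 8.67 and 8.36. Fgf21, a fasting hormone secreted by the liver, read 7.85, 7.52, 7.94 and 7.94 against 6.92, 7.27, 7.29 and 7.47. Both had EA above RSV on every array, Acot2 by 0.43 (95% interval 0.03 to 0.83) and Fgf21 by 0.57 (-0.05 to 1.2). Cyp4a14, the fatty acid omega-hydroxylase often used as the PPARA readout, went against the list at -0.40 (95% interval -1.17 to 0.36). The list's mean deviation was 0.09 to 0.35 in the EA mice and -0.45 to -0.01 in the RSV mice. The EtOH mice ranged from -0.40 to 0.59, which holds every EA value and every RSV value but the lowest.

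Genes of fatty acid oxidation lay on the same side by smaller amounts. Of 21 uncompressed members, 19 had a positive difference and 4 lay above on every array (background 6.25%), with a median of 0.08. Cpt1a, the gatekeeper of mitochondrial fatty acid entry, read 11.4, 11.54, 11.58 and 11.41 with EA and 11.17, 11.35, 11.32 and 10.91 with RSV. The difference was 0.29 (95% interval 0.08 to 0.51, adjusted p = 0.47). Slc25a20, the carnitine-acylcarnitine carrier, differed by 0.17 and Decr1, a reductase of unsaturated fatty acids, by 0.16, both without overlap. Without RSV replicate 3, 11 members lay above on every array (10.4% of all uncompressed genes), without EA replicate 4, 8 (7.65%), and without EA replicate 3, 7 (7.89%).

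Genes of triglyceride and lipid droplets lay on both sides. Of 14 uncompressed members, 8 had a positive and 6 a negative difference, with a median of 0.07. EA lay above RSV on every array for 3 of them (background 6.25%), and none passed the threshold. Plin2, the main coat protein of hepatocyte lipid droplets, read 12.58, 12.57, 12.46 and 12.56 with EA and 11.89, 12.06, 12.3 and 11.9 with RSV. The EtOH mean was 12.41 and the control mean 12.24, so the EA mice lay above and 3 of the RSV mice below both means. The difference was 0.50 (95% interval 0.21 to 0.8, adjusted p = 0.39). Fitm2, which acts in droplet budding from the ER, read 9.48, 9.55, 9.56 and 9.59 against 8.84, 9.18, 9.11 and 8.93, a difference of 0.53 (adjusted p = 0.36). Mgll, monoglyceride lipase, differed by 0.28. Lpin1, a phosphatidate phosphatase, went the other way at -0.90 (95% interval -1.66 to -0.13), with overlap.

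**Figure D4:**
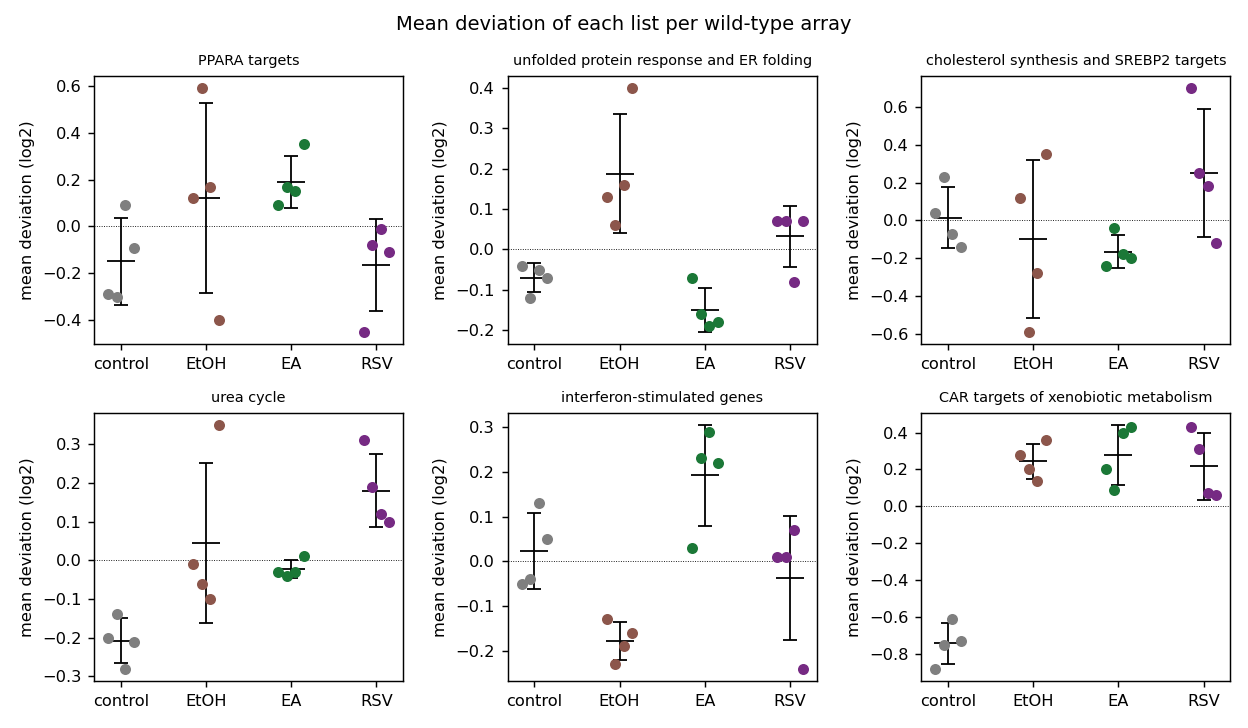
Mean deviation (log2) of each wild-type array from the 16-array mean, averaged over the uncompressed members of 6 gene lists. Points are single mice, horizontal bars are group means and error bars 1 SD (n = 4), and each panel has its own axis. PPARA targets put every EA mouse above every RSV mouse and the urea cycle every EA mouse below every RSV mouse, while CAR targets overlap between the 2 polyphenols at a level far above control.

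Of the 8 urea cycle genes, all uncompressed, 7 had a negative difference and 4 lay below RSV on every array (background 3.94%), with a median of -0.20 and none past the threshold. Cps1, the first and rate-limiting enzyme, read 13.4, 13.4, 13.45 and 13.46 with EA and 13.64, 13.62, 13.6 and 13.54 with RSV. Its difference was -0.17 (95% interval -0.28 to -0.07, limma adjusted p = 0.39). Slc25a15, the mitochondrial ornithine carrier, read 11.58, 11.4, 11.41 and 11.49 against 11.97, 11.81, 11.85 and 11.7, a difference of -0.36 (adjusted p = 0.39). Arg1, arginase, and Ass1, argininosuccinate synthase, were the other two, at -0.26 and -0.55. Of 15 uncompressed genes of one-carbon and methionine metabolism, 13 were negative, with a median of -0.14 (-0.086 without RSV replicate 1). Cth, which makes cysteine from cystathionine, read 12.08, 11.92, 11.97 and 12.1 with EA and 12.87, 12.7, 12.49 and 12.36 with RSV. It was the 1 member below on every array, at -0.59 (95% interval -0.93 to -0.25, adjusted p = 0.39). Without RSV replicate 4 there were 5 (7.68% of all uncompressed genes), and without RSV replicate 2 there were 2 (6.02%).

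Retinoid and glucocorticoid genes gave mixed values. Of 10 uncompressed retinoid genes, 8 were negative, with a median of -0.16. Cyp26a1, which clears retinoic acid, read 9.73, 9.46, 9.73 and 9.29 with EA and 10.28, 10, 10.5 and 9.89 with RSV. All 8 mice lay above the EtOH mean of 8.77 and the control mean of 7.62, and the difference between the polyphenols was -0.62 (95% interval -1.09 to -0.14, adjusted p = 0.49). Rdh11, a retinal reductase, was the other member below on every array (background 3.94%), at -0.54. Without EA replicate 1 (6.12% of all uncompressed genes) or RSV replicate 4 (7.68%) there were 5. Among 13 uncompressed glucocorticoid-responsive genes, 7 were negative and 6 positive, with a median of -0.24 (-0.034 without EA replicate 2). Tat, tyrosine aminotransferase, read 10.66 to 11.08 with EA and 11.07 to 12.04 with RSV. Zbtb16, a transcription factor induced by glucocorticoids, read 6.98 to 7.43 against 7.41 to 8.77. Both pairs of ranges overlapped at their ends.

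Interferon-stimulated and immediate-early genes lay higher with EA. Of 9 uncompressed interferon genes, 7 were positive and 3 lay above on every array (background 6.25%), with a median of 0.29. Without EA replicate 1 there were 6 (11.5% of all uncompressed genes). Ifit1, an antiviral RNA-binding protein, read 7.79, 7.93, 8.09 and 8.21 with EA and 7.56, 7.5, 7.75 and 7.35 with RSV, a difference of 0.47 (95% interval 0.21 to 0.72, adjusted p = 0.37). Igtp, an interferon-induced GTPase, read 9.39 to 9.48 against 8.79 to 9.26. Of 19 uncompressed immediate-early genes, 16 were positive and 3 lay above on every array (background 6.25%), with a median of 0.12 (0.199 without EA replicate 2). Jun read 7.56, 7.86, 8.38 and 7.98 with EA and 6.99, 7.38, 7.27 and 7.3 with RSV. Egr1, a zinc-finger factor of the early growth response, differed by 1.09 (95% interval 0.09 to 2.09) with EA replicate 3 at 10.18 and EA replicate 2 at 8.9, below RSV replicate 2 at 8.96. No member of either list passed the threshold.

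The drug-metabolising targets of CAR did not differ detectably between the 2 polyphenols. All 23 measured members were uncompressed, 13 positive and 10 negative, with a median of 0.03, none above or below on every array and none past the threshold. Cyp2b10, the classic CAR target, read 9.13, 8.83, 9.52 and 9.73 with EA and 10.6, 9.64, 9.61 and 9.13 with RSV, against a control mean of 5.42 and an EtOH mean of 9.47. The difference was -0.44, and its 95% interval of -1.36 to 0.48 leaves room for a difference in either direction. NRF2 targets, the antioxidant response, had a median of 0.07 over 13 members, 12 of them positive (0.176 without EA replicate 3). The enzymes that glucuronidate, sulfate and methylate phenols, the class of both compounds, had a median of 0.01 over 14. Of the carriers, Abcb4, which exports phosphatidylcholine into bile, read 10.96 to 11.16 with EA and 10.61 to 10.96 with RSV, a difference of 0.30 (95% interval 0.05 to 0.55).

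None of the genes often linked to RSV passed the threshold. The paper cites reports that RSV influences the activity of sirtuins and AMPK, and RNA levels do not measure activity. The list of sirtuins, PGC-1 coactivators and AMPK subunits had 10 uncompressed members of 22 measured, with a median of -0.02, and Sirt1, the sirtuin most often named with RSV, was compressed at 8.10 in every wild-type mouse. Sirt3, the mitochondrial deacetylase, read 10.17, 10.19, 10.27 and 10.16 with EA and 10.06, 10.13, 9.96 and 10.04 with RSV. The difference was 0.15 (95% interval 0.04 to 0.26, adjusted p = 0.46), EA being the higher. Ppargc1a, the coactivator of mitochondrial biogenesis, differed by -0.31 (95% interval -0.6 to -0.01), with RSV replicate 3 at 8.1 and the other RSV mice at 8.52 to 8.58. In NAD synthesis, 10 of 12 uncompressed members were negative with a median of -0.05, but Nmrk1, nicotinamide riboside kinase, read 8.09, 8.33, 8.38 and 8.34 with EA and 7.88, 8.01, 7.9 and 7.2 with RSV. Clock repressors had a median of -0.02 over 8 members, and clock activators and outputs one of 0.05 over 8. Genes of ethanol oxidation had a median of -0.06 over 7, and acute phase proteins one of -0.01 over 17.

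Markers of the tissue and its cell types were read as lists too, and no member passed the threshold. Albumin read 14.55 in every wild-type mouse, as fits liver. Hepatocyte markers had a median difference of -0.02 over 7 uncompressed members, 5 of them negative. Their mean deviation was -0.13, -0.12, -0.07 and -0.05 in EA replicates 1 to 4 and 0.08, 0.02, -0.01 and 0.10 in RSV replicates 1 to 4, without overlap. Tat at -0.79 and Cps1 at -0.17 were the lowest of these, and the others lay between -0.08 and 0.08. Kupffer cell markers had a median of 0.02 over 8 and stellate cell markers one of 0.01 over 6. All 6 measured cholangiocyte markers and all 9 of neutrophils and monocytes were compressed. Of the 5 uncompressed sinusoidal endothelial markers, 2 lay above RSV on every array (background 6.25%). The 5 had a median of 0.17, with 4 positive and 1 negative at -0.04. In CAR-deficient mice the median of these 5 was -0.08, with 4 negative. Their mean deviation was 0.06 to 0.21 in the EA mice and -0.03 to 0.03 in the RSV mice. Fcgr2b, the Fc receptor of these cells, read 10.02, 10.06, 10.08 and 10.04 with EA and 9.75, 9.83, 9.81 and 9.91 with RSV. Clec4g, a lectin of the same cells, read 10.85, 10.92, 10.86 and 10.88 against 10.68, 10.7, 10.67 and 10.78. Neither passed, at 0.22 and 0.17 (limma adjusted p = 0.36 for both), so a difference is not established. In whole liver the number of such cells and the RNA per cell cannot be told apart. The other 7 markers of this endothelium were compressed, and the part of cell composition in the results above was not tested.

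In CAR-deficient mice, no probe set passed for EA against RSV in limma (0 of 45011, percent called 0), with 1342 at an unadjusted p under 0.05 and a lowest adjusted p of 0.187. The rank product called 43 there and 1500 in wild-type mice at its false discovery rate of 0.05. The CAR-deficient groups held fewer arrays per diet than the wild-type groups, and their expression table was summarised separately. The counts of either test therefore cannot be set against the wild-type counts as an effect of genotype. For the same reason of separate summary, CAR-deficient levels are not set against wild-type levels. The deleted gene itself, Nr1i3, read 8.96 to 10.1 in wild-type and 8.55 to 9.49 in CAR-deficient mice, which does not check the labels, since the scales differ and the position of the probes relative to the deletion is not given. The limma interaction of EA minus RSV with genotype passed for 2 probe sets (0.00444%). These were Rbm14 1437032_x_at at -0.52 (interaction adjusted p = 6.4e-06) and 1416920_at at -0.30 (adjusted p = 0.019). Both were compressed in the CAR-deficient arrays, the first reading 7.58 in all 6 EA and RSV mice, so the test sets a wild-type difference against a probe set that DFW held flat. Rbm14 1436979_x_at, which varied in both genotypes, read 8.55, 8.94 and 8.61 with EA and 8.89, 8.9 and 9.05 with RSV in CAR-deficient mice. The ranges overlapped, the difference was -0.24 (SE 0.11), and its interaction did not pass (adjusted p = 0.65). Sfpq had a difference of -0.19 in these mice and Hexim1 one of 0.04.

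Of the 30 lists described, 17 had medians of opposite sign in the 2 genotypes, 10 of the same sign and 3 rounded to 0 in CAR-deficient liver. For PPARA targets the median was -0.15 against 0.38 in wild-type, and for cholesterol synthesis 0.04 against -0.45. The ER folding list stood at 0.08 with 22 members positive and 6 negative, where wild-type mice had 3 and 25. The urea cycle stood at 0.06 with all 8 members positive. Cytosolic heat shock proteins stood at -0.13 against -0.11, and interferon-stimulated genes at 0.02 against 0.29. CAR-deficient EA replicate 1 and RSV replicate 3 stood apart from the rest for cholesterol synthesis, with mean deviations of -1.10 and -1.02, where the other CAR-deficient EA and RSV mice lay between 0.18 and 0.40. Leaving out one CAR-deficient array moved the median to between -0.40 and 0.49 for cholesterol synthesis, -0.29 and 0.03 for PPARA targets, -0.05 and 0.14 for ER folding, -0.05 and 0.23 for the urea cycle and -0.25 and 0.06 for heat shock proteins. Each of these 5 medians changed sign in at least 1 such setting, so none has a direction that holds in CAR-deficient mice. The difference between genotypes was not tested for any list, and at most 1 member of the lists named here was compressed in the CAR-deficient arrays. Members of a list share regulators, so their count of signs is not a count of independent observations.

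**Figure D5:**
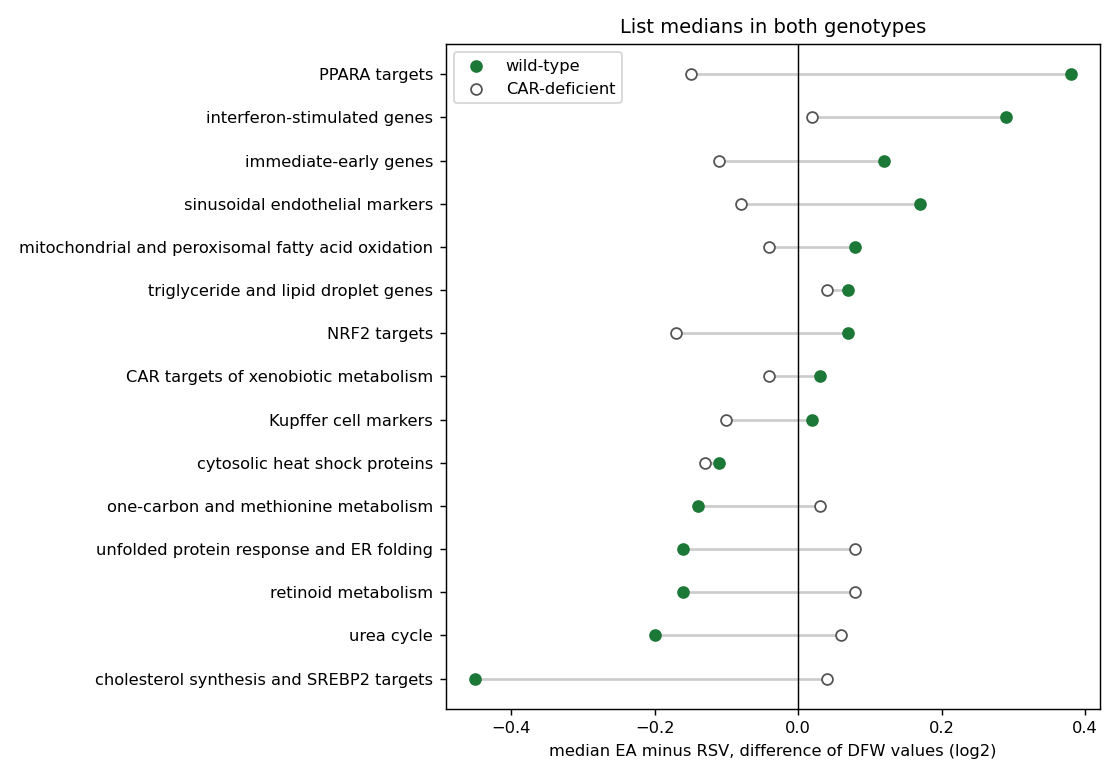
Median EA minus RSV difference of DFW values (log2) over the uncompressed members of 15 gene lists. Filled green points are wild-type mice (4 against 4 arrays), open points CAR-deficient mice (3 against 3 arrays), and grey lines join the medians of a list. Cholesterol synthesis goes from -0.45 to 0.04 and PPARA targets from 0.38 to -0.15, while cytosolic heat shock proteins stay near -0.1 in both genotypes.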

How the data were processed

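Liver RNA of 28 mice was hybridised to Affymetrix whole-genome mouse arrays, 1 mouse per array. The authors deposited log2 expression values, summarised with the Distribution Free Weighted (DFW) method in R, apart for each genotype. DFW rescales each probe set by its own spread, which compresses probe sets that vary little. Scanner intensities were not used here, so signal over background is unknown and the number of arrays limits the precision. Of 45101 probe sets, 64 Affymetrix controls were set aside, and 26 of the rest were blank on the CAR-deficient arrays. A total of 34945 probe sets named 1 gene, 932 several and 9160 none, by the platform annotation. Where several probe sets named a gene alone, the brightest on average stood for it.

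Groups came from the sample titles. The 4 wild-type diets entered 1 limma fit (lmFit and eBayes, limma 3.58.1, R 4.3.3), with EA minus RSV as the contrast and Benjamini-Hochberg adjustment over all probe sets (threshold 0.05). CAR-deficient arrays were fitted alike, and both genotypes jointly for the difference between them. The fit was tested on simulated data. No 2 arrays held identical values, and r between wild-type arrays was 0.9877 to 0.9993. No processing batch is given in the sources used here.

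Named are all probe sets past the threshold, the 10 genes of largest difference in each direction without overlap and with an unadjusted p under 0.05, and in each list described the members past the threshold and 2 to 4 of the largest differences. Further list members, such as Sirt1, Cyp2b10, Cps1, Syvn1 and Calr, and the genes just outside the threshold were named after their values were seen. The members and the 58 gene lists (852 of 934 genes measured) were chosen with earlier results of these data known. Alternatives were the rank product that the study names, run here on DFW values, other scalings, filters and normalization, the replicate block, and leaving out each array. Leaving out CAR-deficient arrays for 5 list medians was chosen after seeing the data. Promoter sequences were taken from RefSeq (GRCm38.p6) and read with Python 3.11.15.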

Additional observations from a re-analysis of the deposited data

Results flagged for a closer look

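Among 264 groups of 4 values for named probe sets, 13 held a value far from the other 3. Chance flags about 5 percent of groups, and the 13 are near that share, so no flag marks a mouse or gene as aberrant. Of genes the text turns on, Rbm14 (1456566_x_at) read 7.88 in RSV replicate 1 and 7.83 in the others, and Acly read 10.22 in EA replicate 3 and 10.65 to 10.66 in the others. RSV replicate 4 stood apart for Nmrk1 at 7.2 (others 7.88 to 8.01), Srsf5 at 11.03 (10.73 to 10.76), Abcb1a at 6.88 (7.35 to 7.45) and Acta2, the smooth muscle actin of activated stellate cells, at 8.79 (7.44 to 7.59). EA replicate 4 stood apart for Acta2 at 7.81 (7.33 to 7.37) and for Abcc4, a basolateral efflux pump, at 7.72 (6.99 to 7.11). RSV replicate 3 stood apart for Ppargc1a at 8.1 (8.52 to 8.58), Pck1, the gluconeogenic carboxykinase, at 12.27 (12.97 to 13.09) and Stab2, a scavenger receptor of the endothelium, at 8.78 (8.85 to 8.86). Cd5l, a Kupffer cell protein, read 9.4 in RSV replicate 1 (9.25 to 9.26), and Clec4f, a Kupffer cell lectin, 9.02 in EA replicate 1 (8.93 in the others).

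The limma interaction of EA minus RSV with genotype passed for Rbm14 1437032_x_at at -0.52 and for 1416920_at at -0.3. Both probe sets were compressed in the CAR-deficient arrays, and the part of that compression in the test was not separated. Rbm14 1436979_x_at and 1456566_x_at varied in both genotypes and did not pass this interaction (limma adjusted p = 0.65 and 0.82). Their CAR-deficient differences were -0.24 and -0.27, so a dependence on genotype is not established.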

How the results depend on the processing

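The count of 11 wild-type probe sets was 6 with a difference of at least 0.1 required, 6 after quantile normalization, 5 with the EA and RSV arrays fitted alone and 4 among probe sets whose suffix marks no shared probes, and 4 to 17 with one array left out. The rank product called 1500 at a false discovery rate of 0.05 (829 higher, 671 lower) and 966 at 0.025, and 6 of the 11 were among the 1500. In CAR-deficient mice limma called 0 under each alternative, and the rank product 43 and 21. The 2 genotype differences became 1 over uncompressed probe sets and 1 among probe sets without shared probes, and 1 to 48 with one array left out (48 without CAR-deficient RSV replicate 1). The separation of the diets was 0.0704 after scaling probe sets to unit variance (p = 0.0571 by exact permutation) and 0.000356 to 0.000869 with one array left out.

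Replicate numbers showed no common pairing: residuals of same-numbered wild-type EA and RSV mice correlated at 0.00186, -0.00657, -0.103 and 0.279 for replicates 1 to 4. Whether mice of the same number shared a factor was not tested. With the replicate block the wild-type count was 4 and the genotype count 1.

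Of 132 probe sets followed, 128 never changed sign. The exceptions were 1452777_a_at at -0.00612 after quantile normalization, Cyp2b13 at -0.128, -0.0681 and -0.233 without RSV replicate 4, RSV replicate 3 and EA replicate 3 (leaving out one array gave -0.233 to 0.799), Adh4 at 0.0148 without EA replicate 4 (-0.108 to 0.0148), and Csf1r at 0.0263 without RSV replicate 1 (-0.0741 to 0.0263). Medians of 21 of the 30 lists kept their sign throughout. The causes of these moves were not tested. Differences on the DFW scale cannot be turned into folds, and with 4 mice per diet most intervals were wide.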

Other observations

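Some gene groups outside the comparisons above are given by their values, none with a member past the threshold. Of 22 uncompressed proteasome subunits, 16 had a positive difference between EA and RSV in wild-type mice, with a median of 0.04. EA lay above RSV on every array for 5, against 6.25% of all uncompressed genes. In CAR-deficient mice 20 were negative, but the mean deviations overlapped, at -0.18 to 0.22 with EA and -0.03 to 0.26 with RSV. The difference between genotypes was not tested for them. Of 13 uncompressed genes of phospholipid metabolism, 4 lay above on every array, with a median of 0.07, and of 12 nuclear receptors 3 did, with a median of 0.06. The 6 uncompressed female-biased liver genes were all positive, with a median of 0.23, and the 10 male-biased ones were split 5 to 5. None of the female-biased genes lay above RSV on every array. Their mean deviations overlapped, at 0.13 to 1.03 in the EA mice, highest in EA replicate 3, and -0.36 to 0.62 in the RSV mice. The growth hormone and IGF axis had 10 of 11 members positive, with a median of 0.06.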
